A study of Mus musculus with 18 samples.

Results

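Aldh3a1 encodes a cytosolic aldehyde dehydrogenase, and its transcript was followed in mouse hepatocyte lines with and without the aryl hydrocarbon receptor (AhR). All probes that the platform annotation assigns to Aldh3a1 were taken, which gave 1 probe (ILMN_1253178) of 45281 on the Illumina mouse BeadChip and 1 gene of 19057. The gene was chosen by its measured levels in these same arrays, which differed between the groups, so its values are given as a description and carry no test. The RefSeq table lists 7 transcripts of the gene, of which 3 are curated, and which of them the probe reads was not analysed here.

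The 18 arrays form 6 groups of 3. The reconstituted line carries the tetracycline repressor and a HisMyc tagged mouse AhR, and the AhR-null line carries the repressor alone. Both lines descend from AhR-/- hepatocytes (C57BL/6N) transformed with the tsA209 mutant of SV40, so every group lacks the endogenous receptor. The labels leave unsaid whether either line is 1 clone or a pool. Each line was exposed for 8 h to 10 µM YH439, to suspension culture in 1.68% methylcellulose after release with trypsin and EDTA, or to 0.1% DMSO as adherent confluent cells. YH439 is a synthetic compound known as an AhR ligand. All cells were kept at 34 °C in medium with 10% serum and 100 nM dexamethasone. No DMSO is recorded for the cells with YH439 or in suspension, and suspended cells differ from their DMSO controls in release and medium as well as in adhesion. The question, by the title, is how outcomes of AhR signalling differ between xenobiotics and lost adhesion. Nothing says that the replicates were separate cultures, so each p reflects only how these samples vary, and that variation may be technical.

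Aldehyde dehydrogenases oxidise reactive aldehydes to acids, and Aldh3a1 acts mainly on aromatic and medium-chain aldehydes, among them products of lipid peroxidation. The enzyme is abundant in cornea and stomach and scarce in normal liver, and in rodent hepatoma cells it is a long-known target of dioxin-type ligands. When AhR binds a ligand it enters the nucleus, pairs with ARNT and binds response elements with the core GCGTG near its target genes, a group often called the AhR gene battery.

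The single probe of Ahr was detected on 0 of 9 reconstituted arrays and on 1 of 9 AhR-null arrays, so it does not show the receptor in the reconstituted line. Whether it lies within the introduced sequence was not analysed here, and the lines are called by their labels throughout. Between 42% and 44.6% of probes were detected per array, with median bead intensities of 6.03 to 11.9. Replicate 1 of each reconstituted group and replicate 3 of each AhR-null group stood apart as 6 dim arrays, with medians from 6.03 to 7.19, against 8.78 to 11.9 on the other 12. Of 13 hepatocyte markers on the array, 8 were detected on no array, among them Alb, Apoa1, Ttr and Cps1, and 2 on every array. Of 11 mesenchymal and stellate markers, 9 were detected on every array, so the defining markers of hepatocytes were largely absent from cells labelled as such. Of 9 corneal and squamous markers, 4 were detected on no array and 4 on all.

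Aldh3a1 was high in reconstituted cells with YH439, somewhat lower in reconstituted cells in suspension, and low in the other 4 groups. It was detected on all 18 arrays, with a detection p of 0 on each. In background-subtracted bead intensity as deposited, replicates 1, 2 and 3 of the reconstituted line read 2588, 4057 and 3355 with YH439, 1635, 2027 and 2381 in suspension, and 449.6, 783.8 and 719.9 with DMSO. The AhR-null arrays read 702.5, 742.9 and 519.7 with YH439, 725.4, 750.8 and 543.7 in suspension, and 676.3, 732.4 and 537.0 with DMSO. Every reconstituted array with YH439 or in suspension thus lay at or above 1635, and every other array at or below 783.8. The group means were 3333 ± 735, 2014 ± 373 and 651 ± 177 in the reconstituted line with YH439, in suspension and with DMSO (SD, n = 3 each). The corresponding AhR-null means were 655 ± 119, 673 ± 113 and 649 ± 101 (SD, n = 3 each).

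After background correction and quantile normalization with limma's neqc, the log2 level in the reconstituted line was 11.64, 11.76 and 11.69 with YH439, 11.04, 10.92 and 11.17 in suspension, and 9.43, 9.47 and 9.39 with DMSO. In the AhR-null line it was 9.28, 9.32 and 9.73 with YH439, 9.28, 9.39 and 9.78 in suspension, and 9.11, 9.30 and 9.39 with DMSO. The highest AhR-null value under each treatment came from replicate 3, one of the dim arrays, which had the lowest deposited intensities of the line. The part of the array's brightness in these values was not tested.

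**Figure D1:**
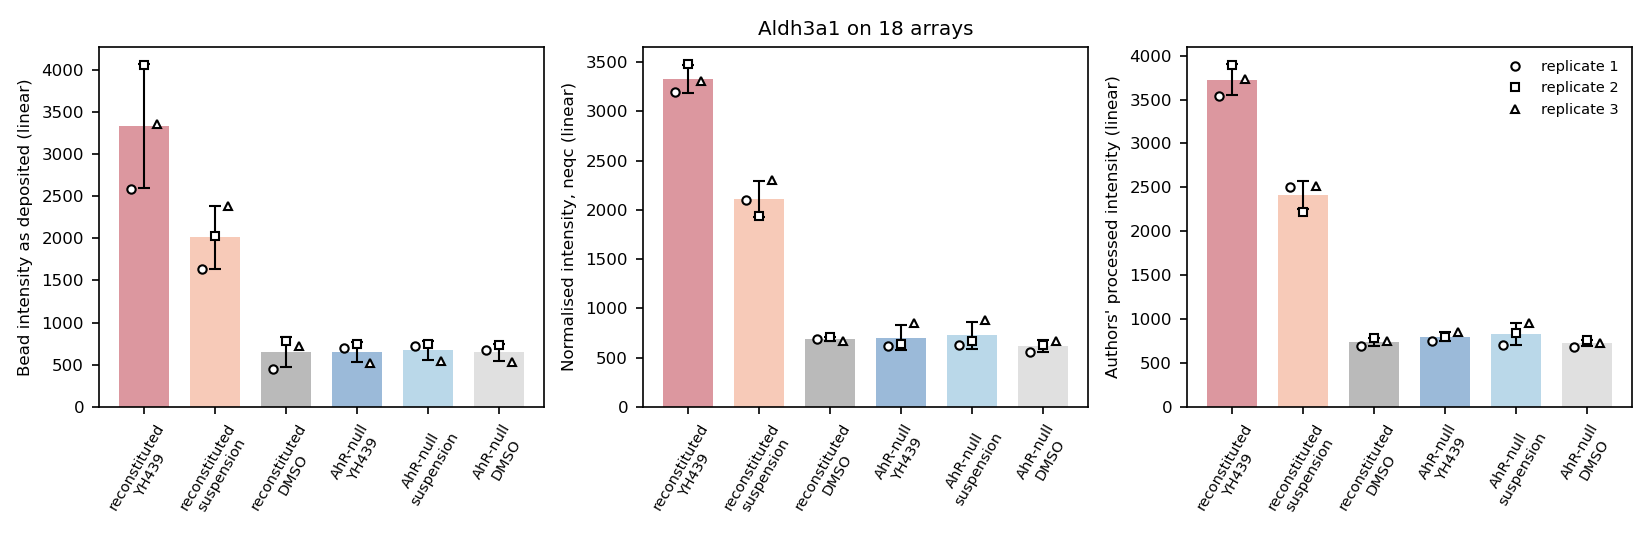
Linear Aldh3a1 intensity on each of the 18 arrays by group, in 3 panels: as deposited, after neqc, and as processed by the authors. Points are arrays and bars are group means with SD (n = 3); in the left panel the reconstituted YH439 and suspension means are 3333 and 2014, and the other 4 lie between 649 and 673.

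Ordered by mean log2 level, the groups ran reconstituted YH439 (11.70 ± 0.06), reconstituted suspension (11.04 ± 0.12), AhR-null suspension (9.49 ± 0.26), AhR-null YH439 (9.44 ± 0.25), reconstituted DMSO (9.43 ± 0.04) and AhR-null DMSO (9.27 ± 0.14; SD, n = 3 each). The first neighbours in that order were 0.66 apart and the next 1.56 apart, and in both cases the arrays of the neighbouring groups did not overlap. The remaining neighbours were 0.04, 0.01 and 0.16 apart, with overlapping arrays. The lowest 4 groups therefore have no resolved order. The SD within groups, pooled over all 6, was 0.169 for Aldh3a1, against a median of 0.209 over the 11149 genes tested, and 32.7% of genes had a smaller one. The group means of Aldh3a1 spanned 2.43 log2 units, a span that 42 genes reached, itself included.

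With YH439, Aldh3a1 in the reconstituted line was 4.83-fold higher than with DMSO, a log2 difference of 2.27 (pooled SD of the arrays 0.05). By same-numbered arrays the fold was 4.64, 4.90 and 4.95 after normalization, and 5.76, 5.18 and 4.66 in the deposited intensity. In the authors' processed values the fold was 5.04. No other gene of the 11149 had a larger positive difference in this comparison.

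In the AhR-null line, Aldh3a1 with YH439 was 1.13-fold the DMSO level, a log2 difference of 0.18 with a pooled SD of 0.20. Same-numbered pairs gave 1.12, 1.01 and 1.27 after normalization, against 1.04, 1.01 and 0.968 in the deposited intensity. The excess was smaller in the deposited intensity, and without the 6 dimmest arrays the log2 difference was 0.092. The response to YH439 was 2.10 log2 units larger in the reconstituted than in the AhR-null line, the largest positive difference of all genes.

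In suspension, Aldh3a1 in the reconstituted line was 3.06-fold higher than with DMSO (log2 difference 1.61, pooled SD 0.09). Same-numbered pairs gave 3.04, 2.73 and 3.44 after normalization, and 3.64, 2.59 and 3.31 in the deposited intensity. It was number 76 of all genes by size of a positive difference, in a comparison in which 2689 genes passed limma's test. In the AhR-null line the suspension level was 1.16-fold the DMSO level (log2 difference 0.22, pooled SD 0.21), with pairs at 1.13, 1.07 and 1.31 after normalization and 1.07, 1.03 and 1.01 in the deposited intensity. The response to suspension was 1.39 log2 units larger in the reconstituted line, a positive difference that 1 gene exceeded.

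**Figure D2:**
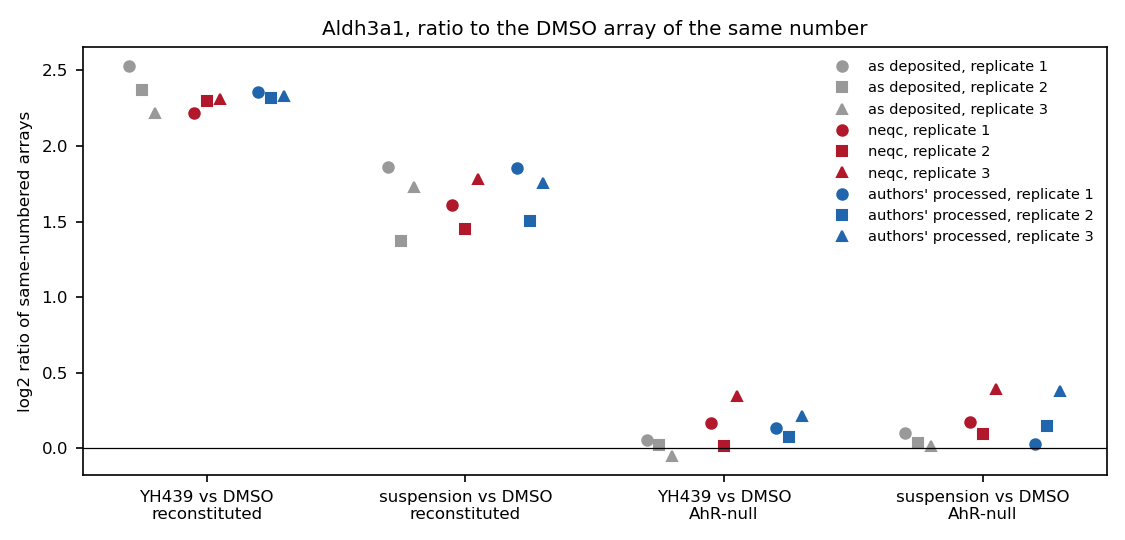
Log2 ratio of Aldh3a1 between same-numbered arrays of a line, for YH439 over DMSO and suspension over DMSO, as deposited, after neqc and in the authors' processed values. Each point is 1 pair; after neqc the reconstituted pairs correspond to folds between 2.73 and 4.95, and the AhR-null pairs to folds between 1.01 and 1.31.

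Within the reconstituted line, Aldh3a1 with YH439 was 1.58-fold its level in suspension (log2 difference 0.66), and the same-numbered pairs gave 1.52, 1.80 and 1.44. Both treatments share the DMSO arrays as their control, so the 2 differences from DMSO are not independent. Under DMSO alone, the reconstituted level was 1.12-fold the AhR-null level (log2 difference 0.16, pooled SD 0.10), and 1.02-fold in the authors' processed values, with overlapping arrays. The summed bead intensity of the hepatocyte markers was 284 to 497 in reconstituted cells with YH439, 692 to 1441 in suspension and 225 to 565 with DMSO. In AhR-null cells it was 261 to 630 with YH439, 535 to 1245 in suspension and 410 to 619 with DMSO. The suspension range lay above the others in the reconstituted line and overlapped them in the AhR-null line. Of 5 tested markers, 2 rose and 1 fell in suspension in each line. Over all genes, 10.7% rose and 13.4% fell in the reconstituted line, and 10.8% rose and 11.9% fell in the AhR-null line. The keratins Krt8 and Krt18 rose in both lines, while Hnf4a fell in the reconstituted and Afp in the AhR-null line. The part of these markers in the Aldh3a1 values was not tested.

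Aldh3a1 was given no test. Of the tested aldehyde dehydrogenases beside it, 0 passed with YH439 against DMSO in either line. The 4 that passed in suspension were the same genes in both lines. Of 20 other family members, 19 were on the array, 14 were tested and 10 were detected on every array, while Aldh3b2, Aldh8a1 and Aldh9a1 were detected on none. With YH439 against DMSO in the reconstituted line, 0 of the 14 passed limma's test, where 0.135% of all genes did, and 0 had an unadjusted p under 0.05. Their log2 differences ran from -0.18 to 0.24 with a median of 0.03, against a median of -0.0045 over all genes. In the AhR-null line 0 of 14 passed, where 0% of all genes did, and 0 had an unadjusted p under 0.05. Aldh3a2, the membrane-bound fatty aldehyde dehydrogenase and the closest listed relative, had log2 levels of 11.33, 11.15 and 11.10 with YH439 and 11.36, 11.05 and 11.05 with DMSO in the reconstituted line. Its log2 difference was 0.04 ± 0.17 (SE, limma adjusted p = 1). In suspension it was -0.15 ± 0.17 (adjusted p = 0.601, or 0.0461 with same-numbered arrays as a block).

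In suspension against DMSO, 4 of the 14 relatives passed the test in each line, 2 higher and 2 lower, where 24.1% of all genes passed in the reconstituted and 22.6% in the AhR-null line. That share of the family is near the background; with same-numbered arrays as a block it was 2 higher and 4 lower in each line, against 48.6% and 47.1% of all genes. The block added Aldh5a1 in both lines, Aldh3a2 in the reconstituted and Aldh1a7 in the AhR-null line. Aldh1l2, a mitochondrial folate enzyme, rose in suspension, by 0.89 ± 0.13 in the reconstituted line (SE, adjusted p = 0.000122) and 1.09 ± 0.13 in the AhR-null line (adjusted p = 1.96e-05). Aldh18a1, which makes the precursor of proline, rose by 0.60 and 0.82 in those lines. Aldh1a1, a cytosolic retinaldehyde dehydrogenase, fell by 0.85 in the reconstituted line (adjusted p = 0.000394) and by 0.55 in the AhR-null line (adjusted p = 0.00996). Aldh3b1, another aldehyde dehydrogenase of class 3, fell by 0.80 in the reconstituted and 0.69 in the AhR-null line. No member passed the test of a different suspension response between the lines, which 0.00897% of all genes passed, and for 0 of them was the unadjusted p under 0.05.

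Under DMSO, Aldh1a1 was the family member that passed between the lines, where 0.547% of all genes did (0.0897% higher and 0.457% lower). Its log2 level was 9.61, 9.22 and 9.49 in the reconstituted and 10.65, 10.64 and 10.34 in the AhR-null line, so the arrays did not overlap. The log2 difference was -1.11 ± 0.14 (SE, limma adjusted p = 0.000939), and with only those 2 groups in the fit the adjusted p was 0.0781. Aldh1a1 was thus lower in the reconstituted line, whereas the Aldh3a1 arrays of the lines overlapped. Without the 6 dim arrays, 2 members were higher and 2 lower, where 24.3% of all genes passed, a share near that of the family.

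**Figure D3:**
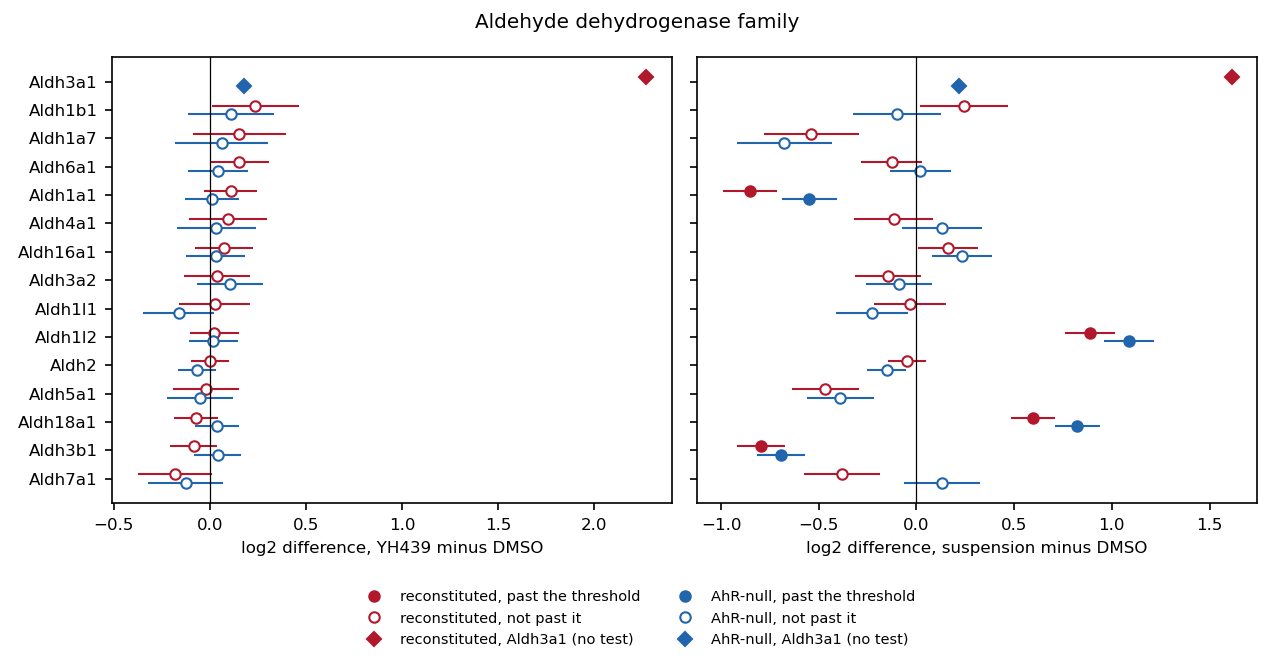
Log2 differences of the tested aldehyde dehydrogenases and Aldh3a1, for YH439 over DMSO and suspension over DMSO in each line. Circles are tested genes with SE bars, filled at an adjusted p under 0.05, and diamonds are Aldh3a1, with no test. Aldh3a1 is higher by 2.27 with YH439 in the reconstituted line, where its relatives lie between -0.18 and 0.24.

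The AhR gene battery was set beside Aldh3a1 as other known targets of the receptor. Of its 18 other members, 17 were on the array, 14 were tested and 12 were detected on every array. Cyp1a1 and Cyp1a2, the classic cytochrome P450 targets, were detected on no array, as was Ugdh. Of 5 tested genes of the AhR complex and its partners, 0 passed limma's test with YH439 in either line, and 0 had an unadjusted p under 0.05. Of all genes, 0.135% passed in the reconstituted and 0% in the AhR-null line. In suspension 1 of the 5 passed in each line, where 24.1% and 22.6% of all genes did, a share near the background. It was Src, a kinase that associates with the complex. Src fell by 0.47 in the reconstituted line (adjusted p = 0.0247) and by 0.54 in the AhR-null line (adjusted p = 0.0134). Both calls were lost on leaving out single arrays (4 and 2 of the arrays compared, adjusted p up to 0.1 and 0.0985 under any setting).

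With YH439 in the reconstituted line, 2 of the 14 battery members passed limma's test, both higher, where 0.135% of all genes passed. Tiparp, an ADP-ribosyltransferase that represses AhR, read 7.25, 7.24 and 7.34 with YH439, against 5.85, 5.93 and 5.60 with DMSO. Its log2 difference was 1.49 (adjusted p = 0.00166). Nfe2l2, the transcription factor NRF2, rose by 0.51 (adjusted p = 0.0242), a call lost on leaving out any 1 of the 6 arrays compared (adjusted p up to 0.212). The median over the 14 members was 0.50, against -0.0045 over all genes. With same-numbered arrays of a line as a block, 6 members were higher and 1 lower, where 0.834% of all genes passed. Without the 6 dimmest arrays 6 were higher, where 0.287% did.

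A further 5 battery members did not pass without the block and did with it. Cyp1b1, the cytochrome P450 of the Cyp1 family that was detected here, differed by 1.04 with an adjusted p of 0.391, or 4.96e-05 with the block. Its log2 level was 12.61, 12.79 and 12.87 with YH439 and 11.56, 11.73 and 11.87 with DMSO, so the arrays did not overlap. Nqo1, a quinone reductase, differed by 1.01 with an adjusted p of 0.0602, or 4.96e-05 with the block. Serpinb2, a serine protease inhibitor, differed by 0.84 with an adjusted p of 0.157, or 0.0146 with the block. Xdh, xanthine dehydrogenase, differed by 0.65 with an adjusted p of 0.0574, or 0.000788 with the block. Lpcat2, a phospholipid acyltransferase, differed by -0.41 with an adjusted p of 0.567, or 0.0358 with the block. These 5 differences were smaller in size than the 2.27 of Aldh3a1. That gene was chosen by its levels in these arrays, so this order is a description only. Ahrr, the AhR repressor, was detected on 3 of 3 arrays with YH439 and 0 of 3 with DMSO. Its only other detection was on 1 reconstituted suspension array. Its log2 level was 5.27, 5.00 and 5.20 with YH439 and 5.01, 4.94 and 4.78 with DMSO, so the arrays overlapped. The ratio of its group means, bounded by the lowest detected signal, was 1.11, and Ahrr did not pass the test (adjusted p = 1).

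With YH439 in the AhR-null line, 0 of the 14 battery members passed, where 0% of all genes did. The unadjusted p was under 0.05 for 185 of the 11149 genes and for 1 of the members. The median difference of the members was 0.05. In the test of a different YH439 response between the lines 0 of 14 passed, where 0.0269% of all genes did. There the unadjusted p was under 0.05 for 188 of all genes and for 6 of the members. With the block 3 passed, where 0.161% of all genes did, all higher in the reconstituted line: Cyp1b1 (adjusted p = 0.00216), Nqo1 (0.00537) and Tiparp (0.00389). A difference between the lines in these members thus depends on how same-numbered arrays are treated.

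**Figure D4:**
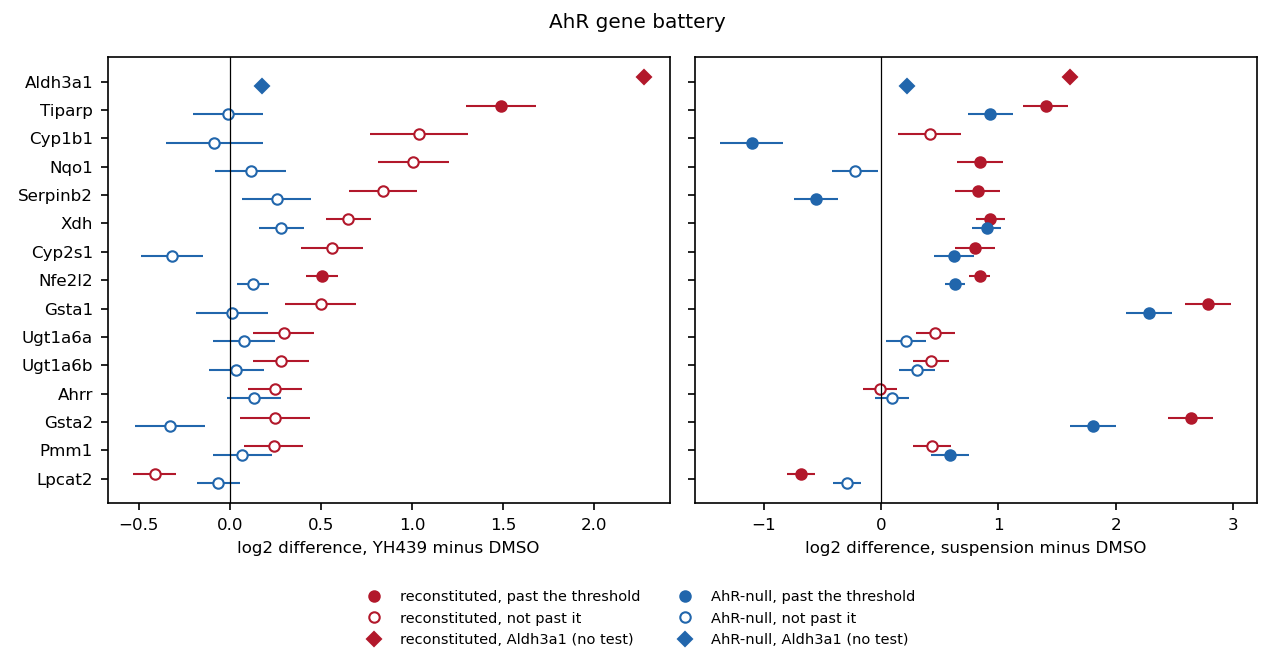
Log2 differences of the tested AhR battery members and Aldh3a1, for YH439 over DMSO and suspension over DMSO in each line. Circles are tested genes with SE bars, filled at an adjusted p under 0.05, and diamonds are Aldh3a1, with no test. With YH439 in the reconstituted line Aldh3a1 is at 2.27 and Tiparp at 1.49, and the AhR-null values lie between -0.33 and 0.28.

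In suspension, 8 of the 14 battery members rose and 1 fell in the reconstituted line, where 10.7% of all genes rose and 13.4% fell. In the AhR-null line 7 rose and 2 fell, where 10.8% rose and 11.9% fell, and 6 of the 8 genes rose in both lines. With the block the counts were 12 and 1 in the reconstituted and 8 and 4 in the AhR-null line, where 48.6% and 47.1% of all genes passed. Without the dim arrays they were 12 and 1, and 9 and 3, where 38.5% and 37.1% did. Gsta1 and Gsta2, near-identical glutathione transferases whose probes may share signal, rose by 2.79 and 2.64 in the reconstituted line (adjusted p = 1.12e-07 and 1.78e-07) and by 2.28 and 1.81 in the AhR-null line. Tiparp rose by 1.40 in the reconstituted line (adjusted p = 7.74e-05) and 0.93 in the AhR-null line (adjusted p = 0.00242). Nqo1 rose by 0.84 in the reconstituted line (adjusted p = 0.00509), while in the AhR-null line its difference was -0.22 (adjusted p = 0.479, or 0.0312 with the block). Cyp1b1 fell by 1.10 in the AhR-null line (adjusted p = 0.00759) and differed by 0.42 in the reconstituted line (adjusted p = 0.304, or 0.00119 with the block). Serpinb2 rose by 0.82 in the reconstituted line (adjusted p = 0.00491) and fell by 0.55 in the AhR-null line (adjusted p = 0.0467, or up to 0.232 under other settings). With only the groups compared in the fit, the AhR-null calls of Tiparp, Cyp1b1 and Aldh1a1 were lost (adjusted p = 0.0572, 0.0827 and 0.0597).

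No battery member passed the test of a different suspension response between the lines, which 0.00897% of all genes passed. The unadjusted p was under 0.05 for 295 of the 11149 genes and for 5 of the 14 members. With the block 4 passed, where 0.17% of all genes did, all higher in the reconstituted line: Cyp1b1 by 1.51, Nqo1 by 1.07, Gsta2 by 0.83 and Serpinb2 by 1.37 (adjusted p = 0.000262, 0.00204, 0.0453 and 0.0216). Within the reconstituted line, 3 members were lower with YH439 than in suspension and 0 higher, where 21.8% of all genes passed and 10.1% were lower. They were Gsta1 (-2.29), Gsta2 (-2.39) and Nfe2l2 (-0.33, a call lost without reconstituted YH439 replicate 1, adjusted p = 0.0536); with the block 2 were higher and 5 lower, where 46.1% of all genes passed. Aldh3a1 ran the other way from these 3, 0.66 higher with YH439. So did Cyp1b1, by 0.62 (adjusted p = 0.117, or 7.48e-05 with the block), and Lpcat2, by 0.27 (adjusted p = 0.126, or 0.0156 with the block). Under DMSO 1 of the 14 was higher in the reconstituted than in the AhR-null line and 0 lower, where 0.547% of all genes passed (0.0897% higher). It was Nfe2l2, by 0.47 (adjusted p = 0.0197, or up to 0.349 under other settings). Without the dim arrays 4 members were higher and 1 lower, where 24.3% of all genes passed.

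Adh7, an alcohol dehydrogenase that also oxidises retinol, is, like Aldh3a1, known from the stomach and cornea. On the list of alcohol dehydrogenases and aldo-keto reductases, it was the member that passed with YH439 in the reconstituted line. That is 1 of 12 tested, where 0.135% of all genes passed. Adh7 read 10.74, 10.71 and 10.58 with YH439, against 9.31, 8.81 and 9.06 with DMSO. The log2 difference was 1.62 (adjusted p = 0.0054, or 0.0511 without reconstituted DMSO replicate 2). The YH439 response was 1.56 larger in the reconstituted than in the AhR-null line (adjusted p = 0.38, or 0.00169 with the block). In suspension Adh7 rose by 1.70 in the reconstituted line (adjusted p = 9.73e-05) and 0.95 in the AhR-null line (adjusted p = 0.00876, or 0.0799 with only the groups compared). Under DMSO it was 1.33 higher in the reconstituted line (adjusted p = 0.014, or up to 0.102 under other settings), where Aldh3a1 differed by 0.16.

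Of 23 tested targets of NRF2, 0 passed limma's test with YH439 in the reconstituted line, where 0.135% of all genes did. The unadjusted p was under 0.05 for 297 of the 11149 genes and for 6 of the targets. With the block 5 targets passed, where 0.834% of all genes did. In suspension 11 rose and 0 fell in the reconstituted line, where 10.7% of all genes rose and 13.4% fell. The AhR-null counts were 7 and 1, where 10.8% rose and 11.9% fell. With the block these counts were 16 and 1 in the reconstituted and 12 and 3 in the AhR-null line, where 48.6% and 47.1% of all genes passed. With YH439 against suspension in the reconstituted line 0 were higher and 8 lower, where 11.8% of all genes were higher and 10.1% lower. With the block 2 were higher and 12 lower, where 46.1% of all genes passed. Nqo1 and Gsta1 stand on both this list and the battery.

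Among 1027 genes whose group means spanned at least 1 log2 unit, the 10 with the highest Pearson r with Aldh3a1 over the 18 arrays were Gpc1 (0.96), Ccno (0.93), Gsdme (0.93), Scn3a (0.91), Adh7 (0.91), Gprc5a (0.89), Nqo1 (0.88), Anpep (0.88), Slc22a23 (0.85) and Foxq1 (0.84). The arrays share line, treatment and brightness, so these r values are a description. Ranked by Spearman's rho instead, 5 of the 10 remained, and Gpc1, a heparan sulphate proteoglycan of the cell surface, was first under both. Gpc1 differed by 0.88 with YH439 and 0.56 in suspension in the reconstituted line, and by 0.13 and 0.14 in the AhR-null line. Gsdme, a pore-forming gasdermin, differed by 1.01 with YH439 and 0.39 in suspension in the reconstituted line. Scn3a, a sodium channel subunit, was detected on no AhR-null array. In suspension in the AhR-null line, Foxq1 differed by 1.06, Adh7 by 0.95, Ccno by 0.81 and Slc22a23 by 0.54, where Aldh3a1 differed by 0.22. The others of the 10 lay there between -0.25 (Gsdme) and 0.14 (Gpc1).

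**Figure D5:**
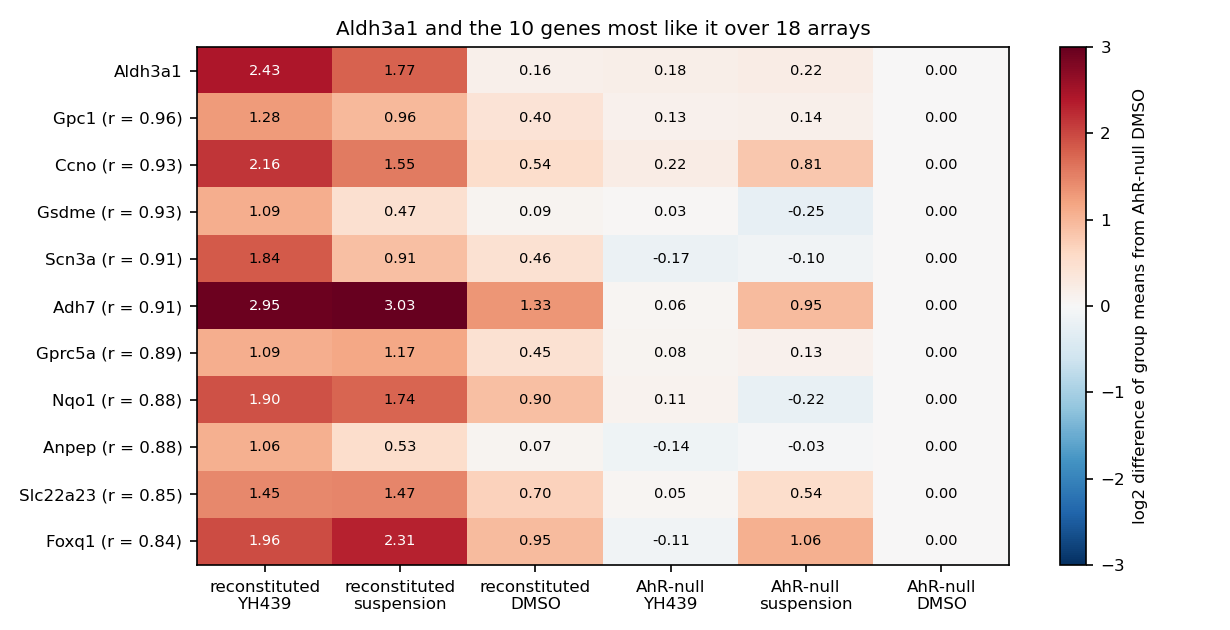
Group means of Aldh3a1 and of the 10 genes with the highest Pearson r with it, as log2 difference from the AhR-null DMSO mean. Columns are the 6 groups, and r over 18 arrays stands beside each name. Aldh3a1 reaches 2.43 in reconstituted YH439 cells, and in reconstituted DMSO cells the 10 other genes lie between 0.07 (Anpep) and 1.33 (Adh7).

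Promoter windows of 300 bases that span the start of transcription are shown for Tiparp, the battery member with the larger difference of the 2 that passed with YH439, for Ccno, a cyclin-family gene near Aldh3a1 in pattern, and for Aldh3a2, the genomic neighbour and relative that did not pass. The sequences are RefSeq's on GRCm38.p6, written 5′ to 3′ on the strand of the gene. Capitals mark the AhR response element core GCGTG on either strand (CACGC on the strand shown when the match lies on the other).
Tiparp, chr3:65528197-65528496, plus strand: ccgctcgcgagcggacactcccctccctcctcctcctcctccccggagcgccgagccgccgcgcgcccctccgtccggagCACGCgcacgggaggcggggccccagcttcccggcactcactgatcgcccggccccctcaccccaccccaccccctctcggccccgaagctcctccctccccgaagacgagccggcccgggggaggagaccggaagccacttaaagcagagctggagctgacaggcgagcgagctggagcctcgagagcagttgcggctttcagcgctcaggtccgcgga
Ccno, chr13:112987552-112987851, plus strand: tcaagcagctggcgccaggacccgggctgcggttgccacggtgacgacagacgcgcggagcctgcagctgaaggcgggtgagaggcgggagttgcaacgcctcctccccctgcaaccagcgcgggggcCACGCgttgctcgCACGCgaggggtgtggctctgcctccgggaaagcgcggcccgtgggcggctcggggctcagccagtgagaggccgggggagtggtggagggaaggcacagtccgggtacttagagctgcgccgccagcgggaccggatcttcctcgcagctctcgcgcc
Aldh3a2, chr11:61267137-61267436, minus strand: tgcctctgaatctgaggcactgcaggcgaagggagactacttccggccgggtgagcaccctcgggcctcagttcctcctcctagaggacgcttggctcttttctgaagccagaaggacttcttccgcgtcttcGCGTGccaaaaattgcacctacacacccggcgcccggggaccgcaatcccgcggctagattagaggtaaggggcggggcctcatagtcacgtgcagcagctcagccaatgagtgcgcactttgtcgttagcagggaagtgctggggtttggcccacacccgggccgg

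The core stood in 32.4% of the 32851 promoter windows, so a match is common. It was found in 9 of 15 battery members with a window, in 7 of 15 aldehyde dehydrogenases and in 4 of 6 of the genes most like Aldh3a1. Aldh3a1 itself had no window in the RefSeq promoter set, so its own promoter was not searched. The longer form TNGCGTG, which contains the core, stood in 5.07% of all windows. It was found in 2 of 15 battery members, in 3 of 15 aldehyde dehydrogenases and in 3 of 6 of the genes most like Aldh3a1 (Adh7, Anpep and Ccno). Of the windows printed, that of Ccno holds 2 cores and 1 longer form, that of Aldh3a2 1 of each, and that of Tiparp 1 core. Their log2 differences with YH439 in the reconstituted line were 1.62, 0.04 and 1.49. The part of these letters in the differences was not tested. The matches describe letters in these windows and do not show binding.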

How the data were processed

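RNA (500 ng per array) was read with BeadStudio, per the labels' protocols, which name no version. The deposited non-normalized table holds background-subtracted bead intensity and a detection p-value per probe, and the authors' processed series matrix holds linear intensity with a floor of 20. Matrix columns and their arrays had rank correlations of at least 0.99896 over probes above the floor. The matrix is linear and not centred by gene, its direction is that of the signal, its column medians are 20, and its scaling between arrays is unknown.

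From the deposited intensity, neqc of limma 3.58.1 (R 4.3.3) gave log2 values, with background correction by inferred negative controls, an offset of 16 and quantile normalization. A probe was kept if its detection p was under 0.05 on at least 3 arrays (22203). Of all probes, 34885 named 1 gene, 18 several and 10378 none, by a platform annotation that may be old, and 34807 matched RefSeq's GRCm38.p6 table, which changed 0 symbols. The kept probe of highest mean stood for its gene (11149 genes, 4775 with more than 1 kept probe). Group means over all 18 arrays were fitted with lmFit and eBayes, with two-sided tests, Benjamini-Hochberg adjustment over all genes and a threshold of 0.05. Differences are on the log2 scale, and values after ± are SD or SE as stated. Where 1 group had no detection, the fold is a bound, the brighter mean over the higher of its own signal and the lowest detected signal. The fit was run on simulated data with independent arrays, which lack the shared deviation of same-numbered arrays found here.

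Same-numbered arrays deviated together within a line (correlations 0.17 to 0.55 in the reconstituted and 0.56 to 0.86 in the AhR-null line) and not between lines (-0.69 to 0.10), so the numbers were taken to pair arrays within a line, from the data. The labels do not state the pairing. The dim arrays share a number within each line, so the pairing and array brightness cannot be told apart. The block result is given beside many, not all, of the calls of named genes that it changes. Aldh3a1, the lists and the tests were chosen with earlier results of these data known. Named were Aldh3a1, members of the aldehyde dehydrogenase and AhR battery lists, up to 4 members of other lists with the smallest p, and the 10 genes of highest r. Motifs were searched on both strands. Of the members, 15 of 19 battery genes and 15 of 21 aldehyde dehydrogenases had a RefSeq promoter, and Aldh3a1 was among those without.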

Additional observations from a re-analysis of the deposited data

How the results depend on the processing

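Under the alternatives other than leaving out 1 array, with the fit without the 6 dimmest arrays among them, the Aldh3a1 log2 difference for YH439 in the reconstituted line ran from 2.21 (2.20943, no background correction) to 2.33 (2.33281, the authors' processed values), for suspension from 1.55 to 1.70, and for the AhR-null line from 0.092 to 0.18 with YH439 and 0.13 to 0.22 in suspension. The difference between the lines under DMSO was 0.028 in the authors' values, against 0.16. No direction of Aldh3a1 reversed. Leaving out 1 array at a time gave 2.24 to 2.30 and 0.03 to 0.26 for YH439 in the reconstituted and AhR-null lines and 2.01 to 2.24 for their difference, 1.55 to 1.67, 0.07 to 0.32 and 1.29 to 1.54 for suspension, 0.60 to 0.72 for YH439 against suspension and 0.08 to 0.22 for the lines under DMSO. Only 1 probe reads Aldh3a1, so the alternative of another probe was not run.

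Counts of genes past the threshold moved more. For YH439 in the reconstituted line (15 genes), YH439 in the AhR-null line (0), the difference of these responses (3), the difference of the suspension responses (1) and the lines under DMSO (61), the authors' values gave 39, 1, 5, 9 and 130. With same-numbered arrays of a line as a block, the pairing found in the data, the counts were 93, 2 and 18 for the 3 YH439 tests, 5421 (main 2689) and 5250 (2524) for suspension in the reconstituted and AhR-null lines, 19 for their difference and 5136 (2436) for YH439 against suspension. With only the groups compared, they were 1 for the YH439 difference, 861 for suspension in the AhR-null line, 0 for the suspension difference and 7 under DMSO. Without the 6 dimmest arrays they were 32 for YH439 and 4292 for suspension in the reconstituted line, 4135 for suspension in the AhR-null line, 4 for the suspension difference, 2712 under DMSO and 4008 for YH439 against suspension. Leaving out 1 array gave 11 to 13, 0 to 0 and 1 to 4 for the YH439 tests, 1958 to 2155, 1912 to 2630 and 0 to 5 for suspension, 25 to 77 under DMSO and 1689 to 1882 for YH439 against suspension. By Spearman's rho 5 of the 10 genes most like Aldh3a1 remained. The cause was not tested. No paired analysis was possible for the lines under DMSO because the numbers did not pair arrays between lines. The 3 arrays a group and the dim arrays limit the precision.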

Other observations

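The genes beside Aldh3a1 in the RefSeq gene order were read as well, a choice made after the values of Aldh3a1 were seen. Of the 10 genes formed by the 5 on each side, 10 were on the array and 5 were tested: Natd1, Map2k3, Usp22, Aldh3a2 and Rnf112. In limma's fit without the block 0 of them passed in any of the 8 comparisons, where 0% to 24.1% of all genes did, and the smallest adjusted p was 0.1. Of the 5 tested, only Aldh3a2 was read with the block, as a member of a list, and the others were not. With the block Aldh3a2 passed in the reconstituted line for suspension against DMSO (adjusted p = 0.0461), where 48.6% of all genes did. It also passed there for YH439 against suspension (adjusted p = 0.018, or 0.516 without the block), where 46.1% of all genes did. With YH439 against DMSO in the reconstituted line their log2 differences lay between -0.29 and 0.15, where Aldh3a1 was 2.27 higher. In suspension against DMSO in that line they lay between -0.17 and 0.18, where Aldh3a1 was 1.61 higher.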
